A study of Mus musculus with 12 samples.

Results

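Gmpr, Mylip, Dtnbp1, Jarid2, Cd83, Rbm24, Cap2, Fam8a1, Nup153 and Stmnd1 are 10 protein-coding genes that lie around Atxn1 on mouse chromosome 13. They were taken as a given list of named genes, with Atxn1 itself left out, and they are 10 of the 55401 gene identifiers in each count table. Each symbol matched 1 identifier. Atxn1 encodes ataxin-1, and expansion of its CAG tract, which codes for glutamines, causes spinocerebellar ataxia type 1 (SCA1), a disease in which Purkinje cells of the cerebellum degenerate. A knock-in allele is made by replacing a stretch of the endogenous gene in embryonic stem cells. Genes close to the altered site are inherited together with it, and with any other sequence difference between the stem cell strain and the strain used for breeding. The neighbours are therefore the genes in which an effect of the allele on its surroundings, or of linked DNA, would be looked for. The strains are not given in the sources used here.

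Cerebellar RNA of 12 mice was sequenced in 12 libraries, 1 for each mouse, in 3 groups of 4 mice. Wild-type mice injected with dimethyl sulfoxide form the WT DMSO group. Het DMSO names the group of heterozygous Atxn1154Q/2Q knock-in mice given the same solvent, and Het Hit 2 that of mice of that genotype given the compound Hit 2 at 25 mg/ml in DMSO. Hit 2 is a compound studied for its effect on RNA with expanded CAG repeats, and its structure is not given in the labels. All 12 mice received intraperitoneal injections from 18 weeks of age, daily for 5 days, then 2 days of rest and 5 more days, with DMSO under 4 ml/kg, and were 20 weeks old when the tissue was taken. No wild-type group received Hit 2, so an effect of the compound can be read only in the knock-in. The comparisons were Het DMSO versus WT DMSO, and both Het groups together versus WT DMSO, which bear on the knock-in allele and what is linked to it. Het Hit 2 versus Het DMSO bears on the compound, and Het Hit 2 was also compared with WT DMSO. The 3 comparisons with WT DMSO share its 4 mice, and p-values measure the spread between mice.

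Libraries held 15855751 to 45265719 reads assigned to genes. Levels are given as CPM, gene reads as counts per unit of sequencing depth, on library sizes scaled by the TMM method of edgeR. Sums of 8 markers each for Purkinje, granule and astroglial cells were computed, and no marker of these lists was at 0 in any library. Het DMSO library 411 differed from all others, with granule markers at 162 CPM against 3326 to 7050 CPM in the other 11 libraries and Purkinje markers at 580 CPM against 3188 to 7676 CPM. Its oligodendrocyte markers summed to 6558 CPM, and those of Het Hit 2 library 410 to 5478 CPM, against 1277 to 3438 CPM in the other 10. Choroid plexus markers summed to 688 and 1111 CPM in WT DMSO libraries 413 and 425. They summed to 1942 CPM in Het DMSO library 429 and 962 CPM in Het Hit 2 library 410. The remaining libraries had 15.3 to 194 CPM of them. Mitochondrial transcripts made up 0.0795% of the gene reads of Het DMSO library 409 and 1.85% to 2.81% in the other 11. Xist was at 1393 and 1464 CPM in WT DMSO libraries 425 and 426 and at most 0.290 CPM in the other 10, so female mice occurred only in the WT group.

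In the order of the GENCODE M21 annotation of GRCm38, Gmpr, Mylip, Dtnbp1, Jarid2 and Cd83 follow each other on the side of Atxn1 with lower coordinates, and Stmnd1, Rbm24, Cap2, Fam8a1 and Nup153 on the other. The gap to Atxn1 is 0 kb for Gmpr, 138 kb for Mylip, 548 kb for Dtnbp1, 628 kb for Jarid2 and 1747 kb for Cd83. On the other side it is 309 kb for Stmnd1, 453 kb for Rbm24, 537 kb for Cap2, 705 kb for Fam8a1 and 715 kb for Nup153. The authors aligned to GRCm39, so order and gaps are given from GRCm38 and the counts from GRCm39. Gmpr and Atxn1 lie on opposite strands and share 4046 bases at their ends. The only other protein-coding model between Cd83 and Nup153 in that annotation is Gm9817.

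The sequence that the knock-in alters in Atxn1 is a run of CAG triplets, and the transcripts of the neighbours were searched for such runs. The longest perfect run was 3 triplets in Jarid2, a length reached by 13.5% of 21877 protein-coding genes. It was 2 triplets in Atxn1 itself and in 8 neighbours, a length reached by 78.2%, and 1 triplet in Fam8a1. The runs of Jarid2, Cap2, Fam8a1 and the unaltered Atxn1 are shown with their surroundings, from the GENCODE M21 transcripts of GRCm38, 5′ to 3′, with the run in capitals, because they are the member with the longest run, the member that separated the genotypes best, the member with the shortest run and the gene that is altered in the model.
Jarid2: gcctcaaggcCAGCAGCAGgttgaaccca
Cap2: acctgagctctaCAGCAGaatgacagacat
Fam8a1: gacggcgccttgaCAGgcagcgcggaggg
Atxn1: cagctagagctaCAGCAGccgcaggacact
None of the 10 neighbours thus has a CAG run longer than 3 triplets in the reference transcripts. The stretch shown for Atxn1 is the first of its longest runs anywhere in the transcript. Its place relative to the site that the knock-in alters was not examined, so it is not shown as that site.

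RefSeq promoters of GRCm38.p6, which run from 250 bases before to 50 after a gene's start, were matched for 9 of the 10 neighbours, all but Cd83. The promoters of Cap2 and Nup153 are shown because they are the extremes of base composition among the 9, with each CG dinucleotide in capitals.
Cap2, chr13:46501653-46501952, plus strand: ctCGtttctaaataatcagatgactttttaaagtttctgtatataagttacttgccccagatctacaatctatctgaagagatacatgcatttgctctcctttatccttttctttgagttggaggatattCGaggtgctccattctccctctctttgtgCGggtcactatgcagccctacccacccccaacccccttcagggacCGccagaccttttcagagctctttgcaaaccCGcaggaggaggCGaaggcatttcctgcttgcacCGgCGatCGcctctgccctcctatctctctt
Nup153, chr13:46727800-46728099, minus strand: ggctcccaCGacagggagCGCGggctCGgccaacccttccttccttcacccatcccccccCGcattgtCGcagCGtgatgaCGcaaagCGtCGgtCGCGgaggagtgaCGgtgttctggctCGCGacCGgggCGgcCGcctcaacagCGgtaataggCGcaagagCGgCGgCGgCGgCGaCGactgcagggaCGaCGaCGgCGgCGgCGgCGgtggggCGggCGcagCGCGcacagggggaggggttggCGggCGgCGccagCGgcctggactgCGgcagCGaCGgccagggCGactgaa
The Cap2 promoter holds 9 CG dinucleotides at 48.3% G and C, and 45.8% of the 32851 promoters in the table have at least as many. The Nup153 promoter holds 45 at 74.0% G and C, a number reached by 1.93% of promoters. The medians of the table are 7 CG dinucleotides and 52.7% G and C, and the other promoters of the neighbours lie between 5 (Stmnd1) and 41 (Dtnbp1).

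Of the 10 genes, 9 passed the filter on low counts and Stmnd1 did not. Stmnd1, named for its stathmin domain, had 10 reads in all, with at most 4 in a library and 0 in 8 of the 12 libraries. A count of 0 allows up to 3 reads, or 0.0690 to 0.187 CPM at the depths of these libraries, for counting error only. Stmnd1 was therefore close to the limit of detection in every group and gives no comparison.

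In WT DMSO the other 9 ranked in order of CPM per kb of exon, the scale on which genes of different length can be set side by side. Cap2 stood at 20.3 ± 0.574 CPM per kb (SD, n = 4) and Jarid2 at 17.6 ± 1.85 (SD, n = 4), and the ranges of these 2 genes overlapped. Nup153 followed at 13.9 ± 0.786 CPM per kb and Fam8a1 at 11.6 ± 0.842, next to Atxn1 at 11.6 ± 1.03 (SD, n = 4 for each). Gmpr at 8.16 ± 0.696 CPM per kb and Dtnbp1 at 7.34 ± 0.599 overlapped each other, as did Mylip at 5.51 ± 0.562 and Cd83 at 3.94 ± 0.908 (SD, n = 4 for each). Rbm24 had the lowest level of the 9, 1.37 ± 0.276 CPM per kb (SD, n = 4), from 120 to 192 reads per WT DMSO library and 81 to 262 over all 12.

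**Figure D1:**
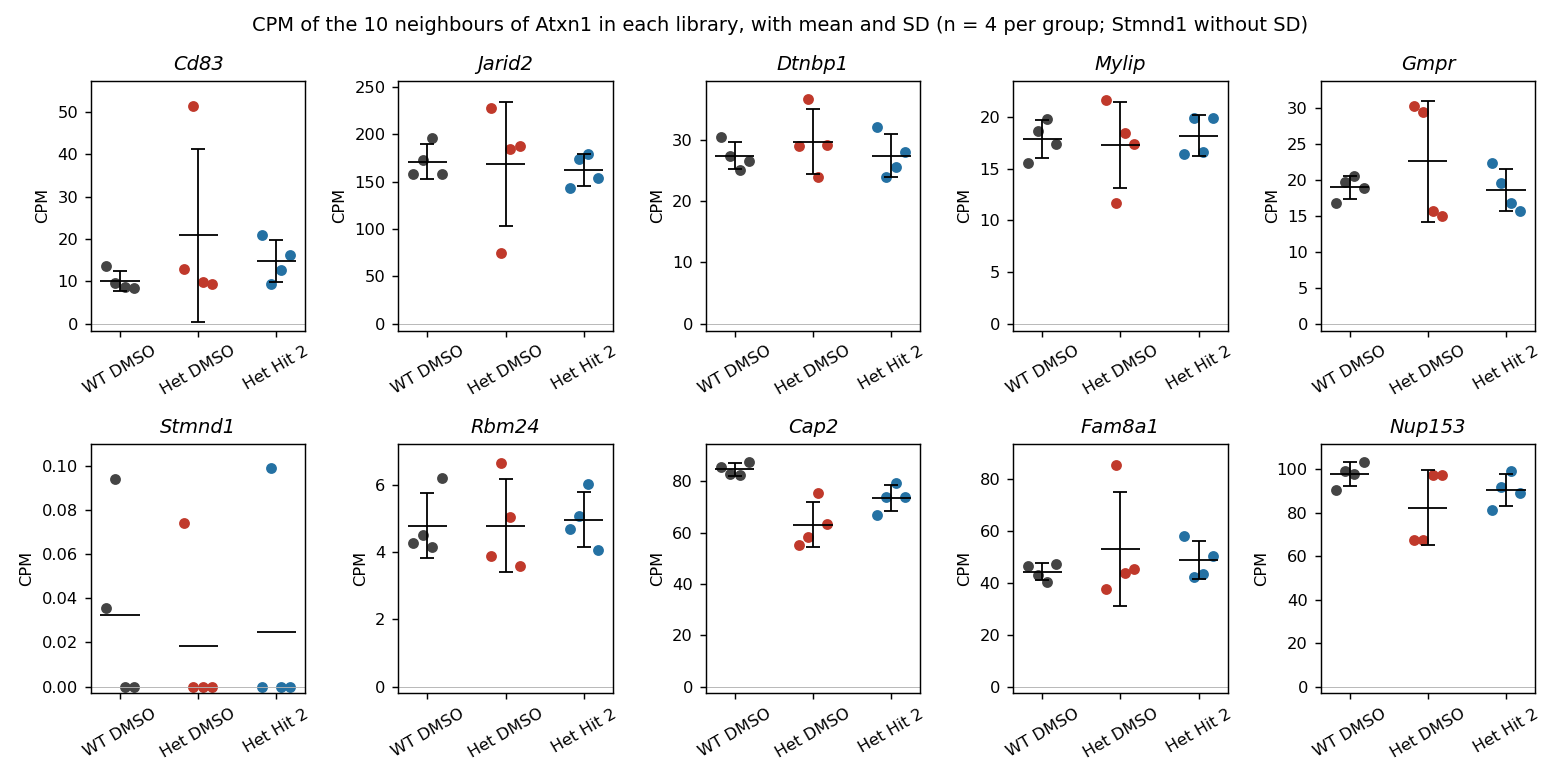
CPM of each of the 10 neighbours (vertical axis, linear, one panel per gene) in the 4 libraries of each group, with the mean as a horizontal line and the SD as a bar, which is left out for Stmnd1. The WT DMSO points of Cap2 lie above all 8 Het points, while in the other panels the groups overlap. The Het DMSO point of mouse 411 stands far above the rest of its group for Cd83 and Fam8a1.

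None of the neighbours passed an adjusted p of 0.05 in any comparison. For Het DMSO versus WT DMSO, 0 of 9 passed, where 1 of 19378 genes tested did (0.00516%). For both Het groups versus WT DMSO, 0 of 9 passed, against 10 genes in all (0.0516%). The count was 0 of 9 for Het Hit 2 versus WT DMSO, against 0.00516% of all genes, and 0 of 9 for Het Hit 2 versus Het DMSO, against 0%. DESeq2 also called 0 of 9 in each comparison, with 43, 56, 24 and 0 genes called in all, in the same order.

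Without adjustment, edgeR's quasi-likelihood p lay under 0.05 for 1 neighbour, Cap2, in Het DMSO versus WT DMSO (7.11% of all genes) and in both Het groups versus WT DMSO (3.79%). It did so for 0 neighbours in Het Hit 2 versus WT DMSO (1.71%) and for 0 in Het Hit 2 versus Het DMSO (1.55%). Groups of libraries did not overlap for Cap2 alone in Het DMSO versus WT DMSO (4.39% of all genes), in both Het groups versus WT DMSO (1.80%) and in Het Hit 2 versus WT DMSO (6.32%). In Het Hit 2 versus Het DMSO they overlapped for all 9 (1.03% of genes did not). With libraries 409 and 411 omitted, 20105 genes were tested, and the unadjusted edgeR p lay under 0.05 for Cap2 in Het DMSO versus WT DMSO (5.83% of all genes under this omission) and in both Het groups versus WT DMSO (8.3%). It did so for 2 neighbours in Het Hit 2 versus WT DMSO (9.5%), the lower Cap2 (p 0.00989) and the higher Cd83 (p 0.0461). In Het Hit 2 versus Het DMSO it did so for 0 (3.72%). None of the 9 passed the adjusted threshold under this omission, which 0.0895%, 0.607%, 0.448% and 0% of all genes passed in the 4 comparisons, in the same order. At 1 gene of 9, the counts over all libraries are too small to be set apart from the background. The median log2 fold change of the 9 was -0.0014 for Het DMSO versus WT DMSO, where that of all genes was 0.05. It was 0.03 for both Het groups versus WT DMSO (0.03 over all genes), -0.0009 for Het Hit 2 versus WT DMSO (0.02) and -0.05 for Het Hit 2 versus Het DMSO (-0.04).

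Cap2 encodes cyclase-associated protein 2, an actin-binding protein that takes part in the turnover of actin filaments. Its 4 WT DMSO libraries held 85.3, 82.9, 82.4 and 87.6 CPM in mice 413, 425, 426 and 431. The Het DMSO mice 409, 411, 420 and 429 held 55.3, 58.4, 75.5 and 63.2 CPM, and the Het Hit 2 mice 410, 421, 422 and 430 held 66.6, 73.9, 79.4 and 73.8 CPM. Each of the 8 Het mice was thus below each of the 4 WT mice, including WT mice 413 and 431, whose Xist was as low as in the Het mice. Gene models on the opposite strand overlap Cap2 in GENCODE M21, and reads on that strand made up at most 0.329% of those over Cap2 in any library. An rRNA model on the same strand, Gm24915, also overlaps Cap2, and its part in the counts was not examined. Group means were 84.5 ± 2.39 CPM in WT DMSO, 63.1 ± 8.88 in Het DMSO and 73.4 ± 5.24 in Het Hit 2 (SD, n = 4 for each).

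The log2 fold change of Cap2 was -0.42 (SE 0.11, 95% interval -0.67 to -0.18) for Het DMSO versus WT DMSO, with an edgeR p of 0.00259 and an adjusted p of 0.616. An exact permutation test (two-sided) gave p = 0.0286, the least that 70 splits of 4 mice from 4 allow. For both Het groups it was -0.31 (SE 0.095, interval -0.52 to -0.10), with an edgeR p of 0.00659, an adjusted p of 0.869 and an exact permutation p of 0.0101 over all splits of the 12 mice into 8 and 4. It was -0.20 for Het Hit 2 versus WT DMSO (SE 0.11, interval -0.45 to 0.04), with an edgeR adjusted p of 1.000 and an exact permutation p of 0.0286. Cap2 was lower in the Het DMSO group by a margin beyond the spread within the groups, but did not pass once all 19378 genes were taken into account. Omitting libraries 409 and 411 gave -0.30 (edgeR p 0.00537, adjusted p 0.424) for Het DMSO versus WT DMSO, and omitting the WT libraries 425 and 426 gave -0.46 (edgeR p 0.0158, adjusted p 0.908).

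With the compound, Cap2 was 0.22 higher on the log2 scale in Het Hit 2 than in Het DMSO (SE 0.11, interval -0.02 to 0.46), with an edgeR p of 0.0720, an adjusted p of 0.898 and an exact permutation p of 0.114. The groups overlapped through mouse 420, whose 75.5 CPM exceeded 3 of the 4 Het Hit 2 mice. Omitting libraries 409 and 411 brought the difference to 0.083 (edgeR adjusted p 0.983). Markers of 2 cell types separated the genotypes in the way Cap2 did. Summed Purkinje markers ranged from 7350 to 7676 CPM in WT DMSO, 580 to 6690 CPM in Het DMSO and 3188 to 6362 CPM in Het Hit 2. Summed astroglial markers ranged from 1569 to 1651 CPM in WT DMSO, 752 to 1405 CPM in Het DMSO and 1093 to 1391 CPM in Het Hit 2. Their part in the Cap2 values was not tested. In RNA of whole tissue, fewer cells of a type and less RNA per cell cannot be told apart.

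**Figure D2:**
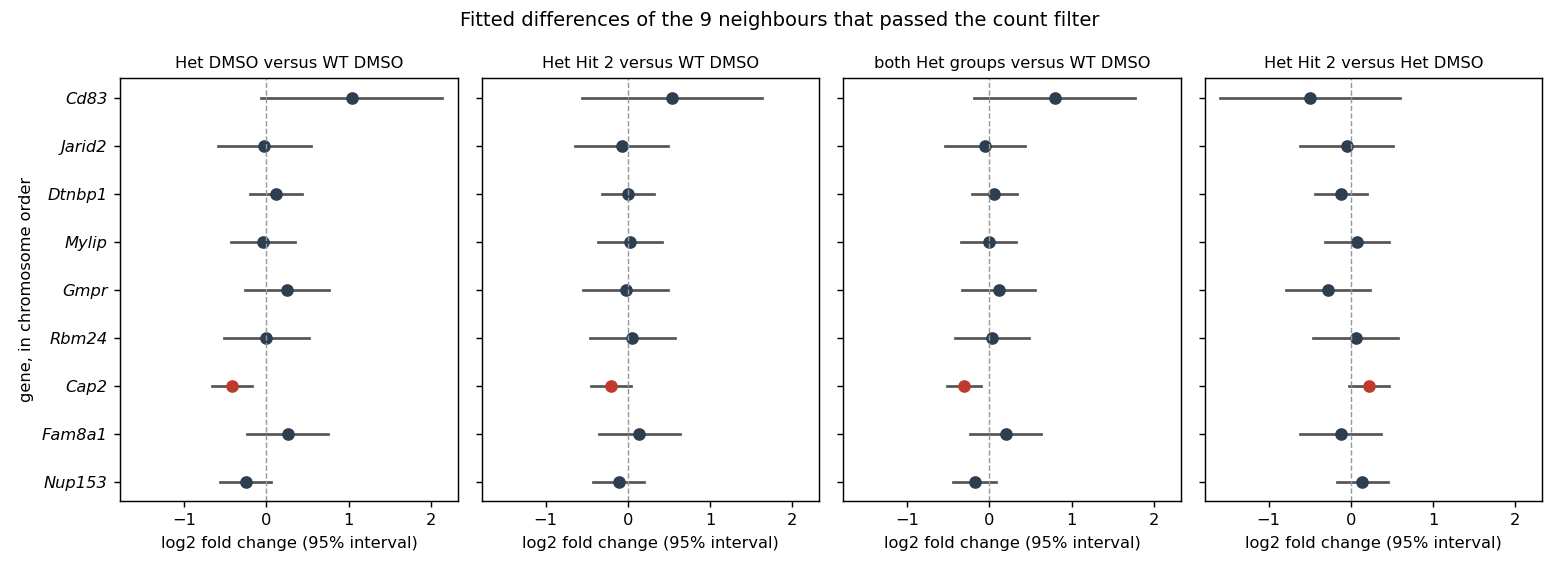
Fitted log2 fold change (horizontal axis) with its 95% interval for the 9 neighbours that passed the count filter, in chromosome order (vertical axis), one panel per comparison, with Cap2 in red. Cap2 for Het DMSO versus WT DMSO (-0.42) and for both Het groups (-0.31) has an interval that does not reach 0, and every other interval includes 0.

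Gmpr encodes guanosine monophosphate reductase, an enzyme of purine recycling, and it is the neighbour that overlaps Atxn1. It held 16.7, 19.7, 20.5 and 18.8 CPM in WT DMSO mice 413, 425, 426 and 431. The Het DMSO mice 409, 411, 420 and 429 held 30.2, 29.5, 15.6 and 14.9 CPM, and the Het Hit 2 mice 410, 421, 422 and 430 held 22.4, 19.5, 16.8 and 15.7 CPM. The Het DMSO group was thus split, with its 2 highest values in the libraries that stood apart and the other 2 below every WT mouse. Het DMSO versus WT DMSO gave 0.25 on the log2 scale (SE 0.24, edgeR adjusted p 0.677, exact permutation p 0.486), and -0.32 without libraries 409 and 411. Of the reads over Gmpr, 20.4% to 36.8% per library lay on the strand of Atxn1, the highest such share among the 10 genes. These reads were left out of the values. Unstranded counts gave a log2 fold change of 0.30 for Het DMSO versus WT DMSO. How many of the reads shared with Atxn1 they hold was not examined. Het Hit 2 differed from Het DMSO by -0.28 (SE 0.24, interval -0.80 to 0.23, edgeR adjusted p 0.898), a direction that turned to 0.28 (adjusted p 0.983) without libraries 409 and 411. It differed from WT DMSO by -0.03 (SE 0.24, adjusted p 1.000).

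Atxn1 itself stood at 161 ± 14.3 CPM in WT DMSO, 172 ± 11.7 in Het DMSO and 165 ± 20.2 in Het Hit 2 (SD, n = 4 for each). The counts pool both alleles, so they do not check which mice carry the knock-in. Over the 10 libraries other than 409 and 411, the correlation of a neighbour's log2 CPM with that of Atxn1 ranged from -0.20 for Mylip to 0.43 for Gmpr. These are descriptions over 10 libraries that share their scaling.

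Mylip encodes an E3 ubiquitin ligase, also called IDOL, that sends the low-density lipoprotein receptor for degradation. It held 17.8 ± 1.82 CPM in WT DMSO, 17.3 ± 4.16 in Het DMSO and 18.2 ± 1.95 in Het Hit 2 (SD, n = 4 for each). The lowest of the 12 values, 11.7 CPM, was in library 411 and the highest, 21.6 CPM, in library 409. Its log2 fold change was -0.04 for Het DMSO versus WT DMSO, with a 95% interval of -0.43 to 0.34, and -0.01 for both Het groups (-0.34 to 0.33). Het Hit 2 differed from Het DMSO by 0.07 (-0.32 to 0.46). The Mylip data thus allow differences of up to these bounds in either direction.

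Dtnbp1 encodes dysbindin, a subunit of BLOC-1, a complex that sorts proteins to lysosome-related organelles. Its levels were 27.4 ± 2.23 CPM in WT DMSO, 29.7 ± 5.23 in Het DMSO and 27.3 ± 3.50 in Het Hit 2 (SD, n = 4 for each), with the highest value, 36.6 CPM, in library 411. Fitted log2 fold changes were 0.12 for Het DMSO versus WT DMSO (SE 0.14, edgeR adjusted p 0.746) and -0.12 for Het Hit 2 versus Het DMSO (SE 0.15, adjusted p 0.898). Both directions turned without libraries 409 and 411, to -0.053 and 0.038. Reads on the opposite strand made up 1.36% to 14.7% of those over Dtnbp1. The other 7 subunits of BLOC-1 were all measured and 0 of 7 passed in any comparison. For Het DMSO versus WT DMSO their log2 fold changes ran from 0.0092 (Bloc1s1) to 0.30 (Bloc1s4), with a median of 0.15 against 0.05 over all genes. Without libraries 409 and 411 they ran from -0.097 to 0.17, 4 of 7 above 0, with a median of 0.011 against -0.0051 over all genes, and Bloc1s4 was at -0.023.

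Jarid2 encodes a DNA-binding subunit of Polycomb repressive complex 2 (PRC2), which places repressive methyl groups on histone H3. WT DMSO mice 413, 425, 426 and 431 held 158, 173, 196 and 159 CPM, and Het Hit 2 mice 410, 421, 422 and 430 held 143, 174, 179 and 154.02 CPM. The Het DMSO mice 409, 411, 420 and 429 held 227.5, 74.8, 184 and 187 CPM, so that the highest and the lowest of the 12 values fell in this group. Its mean, 168 ± 65.5 CPM (SD, n = 4), stood beside 171 ± 18.0 in WT DMSO and 163 ± 16.9 in Het Hit 2. The log2 fold change of Het DMSO versus WT DMSO was -0.02 (SE 0.26, edgeR adjusted p 0.974), 0.24 without library 411 and 0.11 without 409 and 411. Het Hit 2 differed from Het DMSO by -0.05 (SE 0.26, edgeR adjusted p 0.965), by -0.33 without library 411 (edgeR p 0.0335, adjusted p 0.630) and by -0.19 without 409 and 411 (adjusted p 0.983). Of 11 other PRC2 genes, 0 passed in any comparison. Epop, an accessory subunit, had a log2 fold change of 1.02 for Het DMSO versus WT DMSO (edgeR p 0.0212, adjusted p 0.616), and Ezh2, the catalytic subunit, one of -0.50 (adjusted p 0.616). The median of the 11 was -0.17, against 0.05 over all genes. Without libraries 409 and 411, Epop was at 0.31 (edgeR p 0.270), Ezh2 at -0.034 and the median at 0.023, so these values rested on the 2 libraries.

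Nup153 encodes a nucleoporin of the nuclear basket, the structure on the inner face of the nuclear pore. WT DMSO mice 413, 425, 426 and 431 held 90.4, 99.4, 97.9 and 104 CPM. Het DMSO mice 409, 411, 420 and 429 held 67.4, 67.6, 97.2 and 97.4 CPM, and Het Hit 2 mice 410, 421, 422 and 430 held 81.4, 91.7, 99.5 and 89.2 CPM. The lower mean of Het DMSO thus came from the 2 libraries that stood apart, while mice 420 and 429 lay within the WT range. Fitted over all libraries, the log2 fold change of Het DMSO versus WT DMSO was -0.25 (SE 0.14, edgeR adjusted p 0.616), and -0.02 without libraries 409 and 411. It was -0.18 for both Het groups (SE 0.12, adjusted p 0.939), -0.11 for Het Hit 2 versus WT DMSO (SE 0.14, adjusted p 1.000) and 0.13 for Het Hit 2 versus Het DMSO (SE 0.14, adjusted p 0.898), which turned to -0.11 (adjusted p 0.983) without libraries 409 and 411. Under the alternatives listed below, the value for both Het groups versus WT DMSO ran from -0.23 to -0.058. Among 4 other genes of the basket and its partners, 0 passed in any comparison. Nup50, a partner of Nup153 in nuclear import, had log2 fold changes of 0.24 for Het DMSO versus WT DMSO (edgeR p 0.0586) and -0.27 for Het Hit 2 versus Het DMSO (edgeR p 0.0400, adjusted p 0.898), which were 0.059 and -0.096 without libraries 409 and 411. Tpr, which forms the filaments of the basket, had larger and opposite values of -0.34 (edgeR adjusted p 0.675) and 0.39 (adjusted p 0.898), which were 0.057 and -0.021 without these libraries.

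Cd83 encodes a membrane protein of the immunoglobulin superfamily best known from mature dendritic cells. It varied most of the 9 across libraries, by a factor of 6.02 from lowest to highest. WT DMSO mice 413, 425, 426 and 431 held 13.6, 9.71, 8.74 and 8.55 CPM. Het DMSO mice 409, 411, 420 and 429 held 12.8, 51.4, 9.96 and 9.34 CPM, and Het Hit 2 mice 410, 421, 422 and 430 held 20.9, 9.29, 12.7 and 16.2 CPM. Mouse 411 alone accounted for most of the higher Het DMSO mean, 20.9 ± 20.4 CPM against 10.1 ± 2.34 in WT DMSO and 14.8 ± 4.97 in Het Hit 2 (SD, n = 4 for each). The log2 fold change of 1.04 for Het DMSO versus WT DMSO (SE 0.50, edgeR adjusted p 0.616, exact permutation p 0.286) became 0.10 without library 411. The difference of -0.50 between Het Hit 2 and Het DMSO (SE 0.50, edgeR adjusted p 0.898) became 0.42 without library 411. Microglial markers summed to 210 CPM in library 411 and 149 CPM in library 410, the 2 highest of the 12, against 74.2 to 108 CPM in the others. Their part in the Cd83 values was not tested.

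Fam8a1 encodes a membrane protein of the endoplasmic reticulum that works with the ubiquitin ligase Hrd1 in the removal of misfolded proteins. WT DMSO mice 413, 425, 426 and 431 held 46.4, 43.1, 40.3 and 47.3 CPM. Het DMSO mice 409, 411, 420 and 429 held 37.7, 85.6, 43.9 and 45.1 CPM, and Het Hit 2 mice 410, 421, 422 and 430 held 58.2, 42.4, 43.5 and 50.5 CPM. Library 411 was the highest and library 409 the lowest of the 12, in the same group. The log2 fold change of Het DMSO versus WT DMSO was 0.26 (SE 0.23, edgeR adjusted p 0.662) and -0.053 without library 411. Het Hit 2 differed from Het DMSO by -0.13 (SE 0.23, adjusted p 0.906), which became 0.18 without library 411.

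Rbm24 encodes an RNA-binding protein that regulates splicing, best known from heart and skeletal muscle. It stood at 4.80 ± 0.962 CPM in WT DMSO, 4.80 ± 1.39 in Het DMSO and 4.97 ± 0.815 in Het Hit 2 (SD, n = 4 for each). Its log2 fold change for Het DMSO versus WT DMSO was -0.0014 (SE 0.24, 95% interval -0.52 to 0.52), and for Het Hit 2 versus Het DMSO 0.06 (SE 0.24, interval -0.46 to 0.58).

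**Figure D3:**
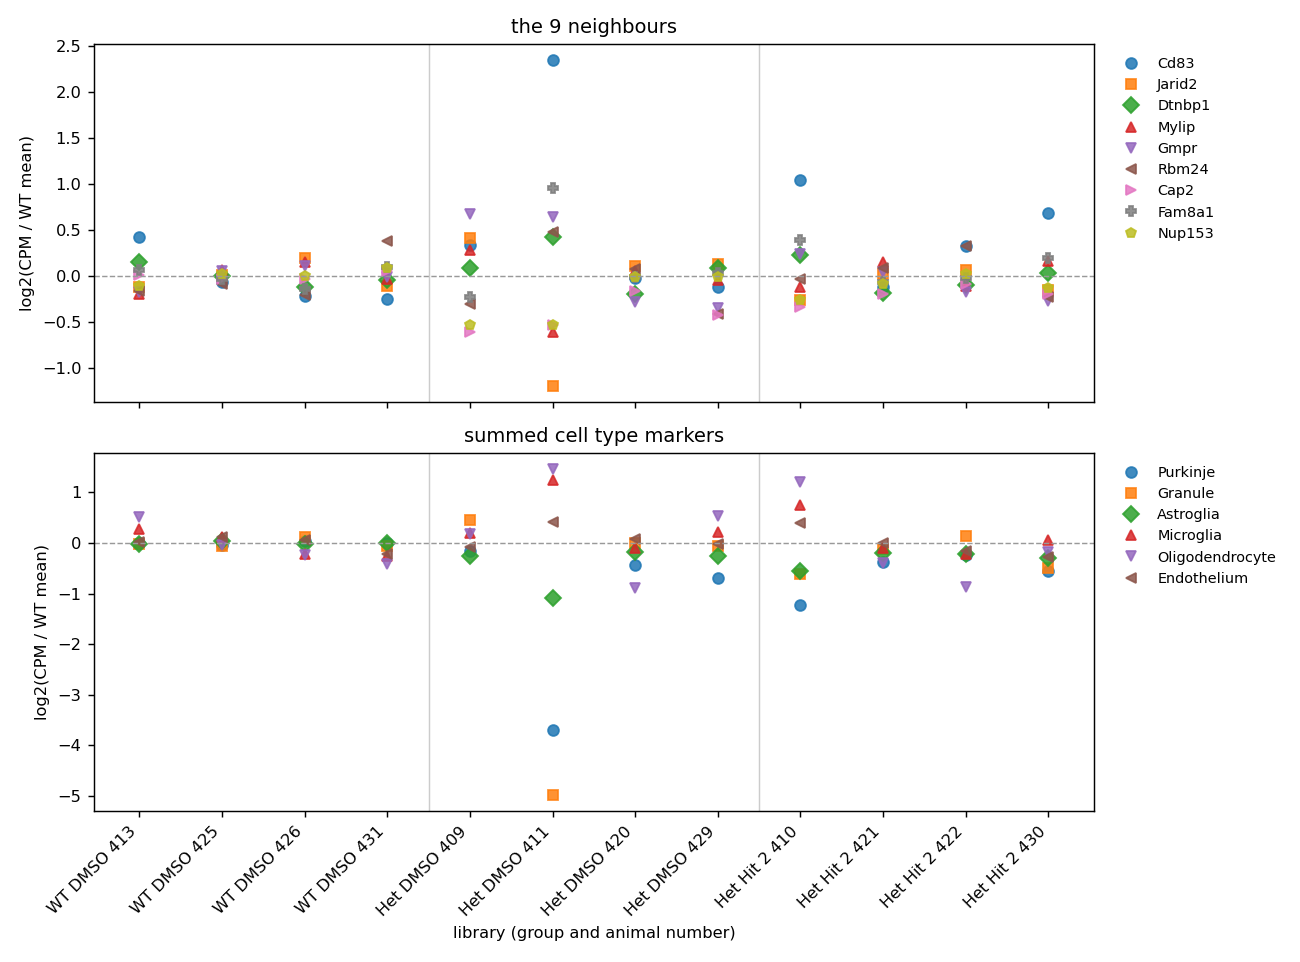
log2 ratio to the WT DMSO mean (vertical axes) of the CPM of the 9 neighbours (top) and of the summed CPM of markers of 6 cell types (bottom) in each of the 12 libraries (horizontal axis). Library 411 has the widest spread in both panels, with Cd83 at 2.34 and Jarid2 at -1.20 in the top panel and granule markers at -4.98 in the bottom one.

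Library 411 and, less far, library 410 set the neighbours against each other. Relative to the WT DMSO mean, library 411 had 5.07 times the level of Cd83 and 1.93 times that of Fam8a1, but 0.436 times that of Jarid2 and 0.654 times that of Mylip. In library 410 the same ratios were 2.06 for Cd83, 1.31 for Fam8a1, 0.837 for Jarid2 and 0.922 for Mylip. Granule markers in libraries 411 and 410 were at 0.0317 and 0.651 times the WT DMSO mean, and oligodendrocyte markers at 2.76 and 2.31 times. The part of these markers in the values of the neighbours was not tested. Over the 10 libraries other than 409 and 411, log2 CPM of Jarid2 and Fam8a1 had a Pearson's r of -0.88 and Cd83 and Fam8a1 one of 0.83, the extremes of the 36 pairs. All 36 share libraries and scaling, and the values are descriptions.

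For each neighbour the gene most like it over these 10 libraries was sought among 16614 genes, by Pearson's r of log2 CPM. Cd83 was most like Dgkb (r 0.98), Dtnbp1 like Lamp1 (0.96), Mylip like Ccdc136 (0.93), Fam8a1 like Rnf207 (0.97) and Nup153 like Ino80d (0.99). For Jarid2, Gmpr, Rbm24 and Cap2 the most alike were the gene models Gm15681 (0.95), Gm48015 (0.94), Gm47246 (0.90) and Gm5083 (0.95). With 16614 candidates and 10 libraries, a high r can arise without any relation between the genes.

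The 10 neighbours were set beside the remaining 40 of the 25 nearest protein-coding genes on each side of Atxn1, of which 33 passed the count filter. Over all 12 libraries, none of the 33 passed an adjusted p of 0.05 in any comparison, and neither did any of 506 tested genes on the rest of chromosome 13. The unadjusted p lay under 0.05 for 4 of the 33 in Het DMSO versus WT DMSO (12.1%, against 7.11% of all genes), for 5 in both Het groups versus WT DMSO (15.2%, against 3.79%), for 3 in Het Hit 2 versus WT DMSO (9.09%, against 1.71%) and for 0 in Het Hit 2 versus Het DMSO (1.55%). Without libraries 409 and 411 it did so, in the same order, for 4 (12.1%, against 5.83%), 6 (18.2%, against 8.3%), 6 (18.2%, against 9.5%) and 2 (6.06%, against 3.72%). Groups did not overlap for 2 of the 33 in Het DMSO versus WT DMSO (6.06%, against 4.39%), 2 in both Het groups versus WT DMSO (6.06%, against 1.80%), 4 in Het Hit 2 versus WT DMSO (12.1%, against 6.32%) and 0 in Het Hit 2 versus Het DMSO (1.03%). Whether the shares of the 33 differ from those of all genes was not tested. On the rest of the chromosome, the unadjusted edgeR p lay under 0.05, in the same order of comparisons, for 36, 17, 6 and 5 of the 506. These were shares of 7.115%, 3.36%, 1.19% and 0.988%. Groups did not overlap there for 28 (5.53%), 11 (2.17%), 25 (4.94%) and 3 (0.593%). The shares of the 506 were not computed without libraries 409 and 411. The 3 of the 33 with the smallest unadjusted p for both Het groups versus WT DMSO were Id4, Phactr1 and Nhlrc1. Id4, an inhibitor of basic helix-loop-helix factors, held 58.8 ± 2.38 CPM in WT DMSO (56.5 to 61.3), 40.7 ± 7.98 in Het DMSO (30.4 to 48.1) and 40.5 ± 5.65 in Het Hit 2 (32.4 to 45.3; SD, n = 4 for each). All 8 Het mice were below all WT mice, as for Cap2, and the log2 fold change for both Het groups was -0.54 (SE 0.13, edgeR p 0.00132, adjusted p 0.475). Without libraries 409 and 411 it was -0.44 (adjusted p 0.0558) for both Het groups, and -0.34 for Het DMSO versus WT DMSO (adjusted p 0.603) where all libraries gave -0.53. For Het Hit 2 versus WT DMSO, Id4 had -0.54 (adjusted p 1.000) over all libraries and -0.55 without 409 and 411, with an adjusted p of 0.0358, the only 1 of the 33 to pass under this omission. Of all 20105 genes tested under it, 0.448% passed in that comparison. The Purkinje and astroglial markers given beside Cap2 also separated these mice, and their part in the Id4 values was not tested.

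Phactr1, a regulator of protein phosphatase 1 and actin, was higher in both Het groups, with no overlap, at 98.7 ± 6.31 CPM in WT DMSO (91.0 to 106), 139 ± 26.9 in Het DMSO (115 to 167) and 129 ± 12.9 in Het Hit 2 (113 to 143; SD, n = 4 for each). Its log2 fold change for both Het groups was 0.44 (SE 0.12, edgeR p 0.00441, adjusted p 0.733), and 0.29 (adjusted p 0.120) without libraries 409 and 411. The Purkinje and astroglial markers given beside Cap2 also separated the Het from the WT mice. Their part in the Phactr1 values was not tested. Nhlrc1, the E3 ubiquitin ligase malin, held 7.97 ± 1.10 CPM in WT DMSO, 12.6 ± 4.37 in Het DMSO and 9.75 ± 1.42 in Het Hit 2 (SD, n = 4 for each), and the groups overlapped. Its log2 fold change for both Het groups was 0.48 (edgeR adjusted p 0.939), and 0.22 (adjusted p 0.766) without libraries 409 and 411. For these 3 genes and Cap2, the compound group differed from Het DMSO by log2 fold changes between -0.38 (Nhlrc1) and 0.22 (Cap2), with edgeR adjusted p-values from 0.898 to 0.994. Without libraries 409 and 411 the values of Phactr1 and Nhlrc1 turned from -0.10 and -0.38 to 0.16 and 0.12, and that of Id4 moved from -0.0046 to -0.21 (adjusted p 0.983 to 0.984 for the 3). Low and high values lay on both sides of Atxn1, as the plot in gene order shows. In these mice an effect of the altered allele, of any DNA linked to it and of the disease state on a gene of this region cannot be told apart.

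**Figure D4:**
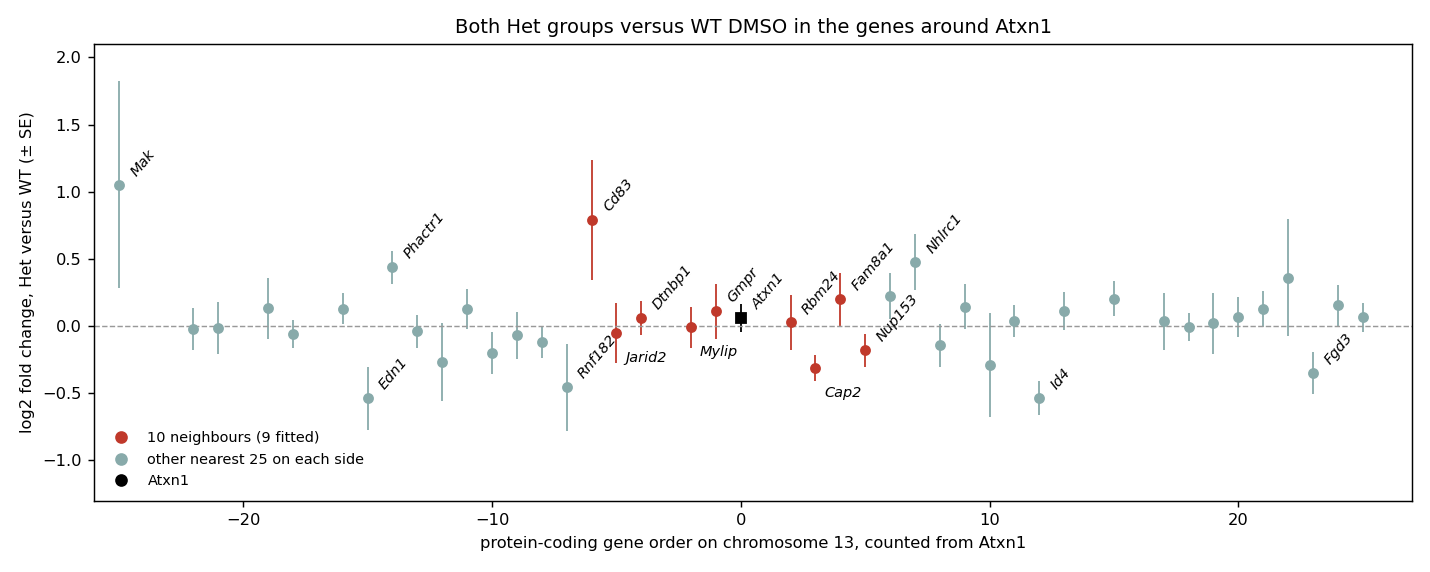
log2 fold change of both Het groups versus WT DMSO (vertical axis, point with SE bar) for the protein-coding genes among the 25 nearest on each side of Atxn1 that passed the count filter, placed by gene order from Atxn1 at 0 (horizontal axis). Neighbours are red, other genes grey and Atxn1 black; among the genes other than Atxn1 the points run from -0.54 (Edn1 and Id4) to 1.05 (Mak), with Rnf182 at -0.46, Fgd3 at -0.35 and Cap2 at -0.31 below 0, and Cd83 at 0.79, Nhlrc1 at 0.48 and Phactr1 at 0.44 above it.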

How the data were processed

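Cerebellar RNA of 12 mice was sequenced. Per the labels' protocols, libraries were directional and depleted of ribosomal RNA, took in 500 ng, were amplified over 13 cycles and gave paired reads of 100 bases. The deposited values are raw read counts per gene in the layout of STAR, which the authors did not normalize. STAR 2.7.10a, FastQC 0.11.9 and the build GRCm39 are named in the submitters' processing notes, and the annotation release is not given in the sources used here. The reverse-strand counts were used. Reads assigned to no gene (44.7% to 54.6% of a library), multimapping, ambiguous and unmapped reads stayed out of library sizes and tests. Of 55401 identifiers, 55141 matched GENCODE M21, which gave symbols, exon lengths and gene order.

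All 12 libraries entered 1 quasi-likelihood fit in edgeR 4.0.16 (R 4.3.3), after filterByExpr and TMM scaling, with 1 coefficient per group. Tests were two-sided, with Benjamini-Hochberg adjustment over all 19378 genes and a threshold of 0.05. For correlations, CPM were put on a log2 scale after adding a prior count of 2. Permutation tests were exact, over libraries. The fitting code was tested on simulated data. At the adjusted threshold it recovered 0.503% of simulated 1.5-fold changes and 14.0% of 2-fold changes for Het DMSO versus WT DMSO. For both Het groups versus WT DMSO it recovered 0% and 28.0%. Most changes of these sizes were thus missed. No animal number occurs in 2 groups, and nothing was paired. The text names all 10 genes, Atxn1, and of the nearest 25 genes on each side those past the threshold or, with none, the 3 with the smallest p for both Het groups versus WT DMSO, and the most alike gene of each neighbour. Other list genes (Bloc1s1, Bloc1s4, Epop, Ezh2, Suz12, Nup50, Tpr, Edn1, Mak, Rnf182, Fgd3 and Dek) fall outside this rule and were chosen after their values were seen. The members and lists were chosen with earlier results of these data known. Alternatives were DESeq2 1.42.0, RLE factors, no filter, unstranded counts, only the groups compared, robust dispersion, voom with quality weights in limma 3.58.1, omission of libraries 409 and 411 or 425 and 426, and each library left out in turn. For the gene lists, only the omission of 409 and 411 was run, chosen after the data were examined.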

Additional observations from a re-analysis of the deposited data

Results flagged for a closer look

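The levels of the 9 neighbours that passed the count filter were checked in each of the 3 groups for a library far from the other 3, by the gap to the nearest library over the group's range, with a limit of 0.829. In 27 such checks chance alone gives about 1.35, and 2 were found, both in Het DMSO library 411. Cd83 stood at 51.4 CPM there, with 12.8 CPM in the next library and a gap of 0.917 of the range. Fam8a1 stood at 85.6 CPM, with 45.1 CPM in the next library and a gap of 0.845 of the range. The same library had the lowest summed granule and Purkinje markers and the highest summed microglial and oligodendrocyte markers of the 12, and their part in the 2 values was not tested.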

How the results depend on the processing

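The count of neighbours past the threshold was 0 in each of the 4 comparisons under every alternative run (21 for each pair of groups, 20 for both Het groups together). Of 747 values of a neighbour under an alternative, 76 changed sign, none of them past the threshold. The sign of Cap2 held in all 83 of its values. Its adjusted p for Het DMSO versus WT DMSO lay between 0.0884 (DESeq2) and 0.908, and for both Het groups between 0.0556 (voom) and 1.000. The log2 fold changes that changed sign were as follows. For Het DMSO versus WT DMSO, Rbm24 was 0.0013 with DESeq2, 0.0036 with RLE factors, 0.024 with unstranded counts and 0.00065 with only the groups compared. With voom weights Jarid2 was 0.058 and Gmpr -0.30. Omitting 425 and 426 gave 0.091 for Jarid2 and 0.070 for Mylip. Omitting 409 and 411 gave -0.081 for Cd83, 0.11 for Jarid2, -0.053 for Dtnbp1, -0.32 for Gmpr and -0.00012 for Fam8a1. For Het Hit 2 versus Het DMSO, voom weights gave 0.25 for Cd83, 0.21 for Gmpr, 0.00091 for Fam8a1 and -0.064 for Nup153. Omitting 409 and 411 gave 0.61 for Cd83, 0.038 for Dtnbp1, 0.28 for Gmpr, 0.12 for Fam8a1 and -0.11 for Nup153. For Het Hit 2 versus WT DMSO, omitting 425 and 426 gave 0.039 for Jarid2, 0.060 for Gmpr and -0.078 for Rbm24. For both Het groups, voom weights gave 0.0013 for Jarid2, -0.036 for Dtnbp1 and -0.20 for Gmpr. Omitting 425 and 426 gave 0.065 for Jarid2, -0.0029 for Dtnbp1, 0.11 for Mylip and -0.11 for Rbm24, and omitting 409 and 411 gave 0.0089 for Jarid2, -0.034 for Dtnbp1, 0.0043 for Mylip, -0.18 for Gmpr and -0.058 for Rbm24. Leaving out each library in turn moved the log2 fold change of Het DMSO versus WT DMSO between -0.21 and 0.24 for Jarid2, -0.18 and 0.12 for Mylip, -0.19 and 0.12 for Rbm24, and -0.053 and 0.39 for Fam8a1. For Het Hit 2 versus Het DMSO the ranges were -0.33 to 0.13 for Jarid2, -0.058 to 0.23 for Rbm24, -0.74 to 0.42 for Cd83, -0.11 to 0.20 for Mylip and -0.26 to 0.18 for Fam8a1. For Het Hit 2 versus WT DMSO they were -0.092 to 0.055 for Dtnbp1, -0.034 to 0.081 for Mylip, -0.14 to 0.029 for Gmpr and -0.054 to 0.20 for Rbm24. For both Het groups they were -0.071 to 0.16 for Rbm24, -0.077 to 0.069 for Mylip and -0.14 to 0.076 for Jarid2. Of the 55 list genes tested, omission of 409 and 411 (chosen after the data were examined) changed the sign of 23 for Het DMSO versus WT DMSO, 30 for Het Hit 2 versus Het DMSO, 3 for Het Hit 2 versus WT DMSO and 11 for both Het groups. For Het DMSO versus WT DMSO these included Dek (-0.44 to 0.22), Suz12 (-0.37 to 0.10), Tpr (-0.34 to 0.057) and Bloc1s4 (to -0.023), and for Het Hit 2 versus Het DMSO Epop (-0.64 to 0.055), Ezh2 (0.42 to -0.049), Phactr1 (to 0.16) and Nhlrc1 (to 0.12). Id4 passed the threshold for Het Hit 2 versus WT DMSO under it, at -0.55, where 0.448% of all genes passed. The cause of these changes was not tested. With 4 mice a group, 95% intervals of the neighbours were between 0.42 and 2.20 log2 units wide from end to end. No paired analysis was possible because the groups share no animal number.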
